A study of Mus musculus with 35 samples.

Results

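The difference examined here is whether anti-Ly6G, an antibody against a surface protein of mouse neutrophils, altered the change of lung messenger RNA between ZT16 and ZT4. It was measured as an interaction: ZT16 minus ZT4 in anti-Ly6G mice, minus ZT16 minus ZT4 in control mice. All 28 libraries of the July and September batches were used, of 35 in the series, because only these batches held both treatments. Of 22211 genes in the table, 16707 reached a value of 1 in at least 3 of these libraries and were tested.

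The 28 mice were wild-type C57BL/6 males of 7 to 9 weeks. The 4 groups were anti-Ly6G mice at ZT16, anti-Ly6G mice at ZT4, control mice at ZT16 and control mice at ZT4, each with 7 mice, 3 from July and 4 from September. Anti-Ly6G (clone 1A8) or control IgG was given under the skin at 3 µg per g body weight on 2 consecutive days, and the perfused left lung lobe was frozen the day after. ZT counts hours from lights on. ZT16 mice lived in cabinets with an inverted light cycle and ZT4 mice in the ordinary facility, so time of day and housing cannot be told apart in any time difference below. The libraries left out came from mice of another genotype treated with diphtheria toxin in a further batch, and how many neutrophils the antibody left was not analysed here.

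The molecular clock is a feedback loop in which CLOCK and BMAL1 drive the period and cryptochrome genes, whose products return to repress them, while the REV-ERB and ROR receptors control transcription of the BMAL1 gene. Neutrophils are short-lived granulocytes that leave the bone marrow, age in blood and enter healthy tissues with a daily rhythm, and the lung capillaries hold a large pool of them. Comparing the time difference with and without anti-Ly6G asks whether the daily change of the lung transcriptome differs when the antibody is given.

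Values are normalised expression values per gene, and their sums per library lay between 962649 and 1033550. Read depth is unknown, so precision is given by the spread between mice. The number of genes at a value of 1 or more lay between 15351 and 15802. Lung genes were high in every library: surfactant gene Sftpc lay between 14379.9 and 19990.5, club cell gene Scgb1a1 between 22013 and 32989 and alveolar type 1 gene Ager between 1412 and 2484. The median within-group SD of log2 values was 0.161 in anti-Ly6G mice at ZT16, 0.153 in anti-Ly6G mice at ZT4, 0.157 in control mice at ZT16 and 0.162 in control mice at ZT4. No 2 libraries held the same values, and the highest correlation between any pair was 0.993. In whole-lung RNA, fewer cells of a type and less RNA per cell cannot be told apart.

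No gene passed the interaction test. limma with Benjamini-Hochberg adjustment over all genes called 0 of 16707 (0%) at 0.05, and the lowest adjusted p was 0.875. At an unadjusted p under 0.05 there were 932 genes (5.58%), of which 381 (2.28%) had a positive and 551 (3.3%) a negative interaction, where 835 would be reached by chance alone. At an unadjusted p under 0.001 there were 10 genes, against 16.7 by chance. The median interaction over all genes was -0.003 on the log2 scale, its median size without sign was 0.094, and the median standard error was 0.127. Interactions over 2-fold were estimated for 34 genes and none of them was called. Anti-Ly6G against control mice at 1 time alone gave 0 called genes as well, where 636 genes at ZT16 and 1116 at ZT4 had an unadjusted p under 0.05. The lowest adjusted p was 0.765 at ZT16 and 0.474 at ZT4.

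The intervals limit how large an unseen interaction could be. Each gene's 95% interval reached a median of 0.26 (log2) to either side of its estimate, from 0.13 at the 5th to 0.66 at the 95th percentile of genes. The interval lay wholly within 2-fold for 15881 genes (95.1%) and wholly within 1.5-fold for 12362 genes (74.0%). A pair of one-sided limma tests against a 2-fold interaction in either direction, adjusted over all genes, placed 16151 genes (96.7%) within 2-fold. The same tests placed 13073 genes (78.2%) within 1.5-fold. Bounds were tighter for well-expressed genes: 99.5% of intervals of genes at or above the median level lay within 2-fold and 96.0% within 1.5-fold, against 90.6% and 51.9% of those below it. A gene at the median standard error would alone have needed an interaction of 0.73 (log2) to be called, or 0.37 and 1.85 at the 5th and 95th percentile of standard errors. The interval of 1 gene, the predicted gene Gm14308 with a low level, lay wholly beyond 1.5-fold (interaction -2.31, adjusted p = 0.875), and those of 0 genes lay beyond 2-fold.

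Time differences themselves were plentiful in both treatments. In anti-Ly6G mice 3329 genes (19.9%) were called between ZT16 and ZT4, 1706 (10.2%) higher and 1623 (9.71%) lower at ZT16. In control mice 1396 genes (8.36%) were called, 721 (4.32%) higher and 675 (4.04%) lower at ZT16. Both calls shared 1035 genes, which was 31.1% of those called in anti-Ly6G mice and 74.1% of those called in control mice, and all 1035 moved the same way. Another 2294 genes were called in anti-Ly6G mice only and 361 in control mice only, but no gene of either kind passed the test of the difference itself. Of the 1396 genes called in control mice, 1371 (98.2%) were placed within a 2-fold interaction, and 1211 (86.7%) within 1.5-fold. The plot of time differences shows both treatments along the line of equality.

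**Figure D1:**
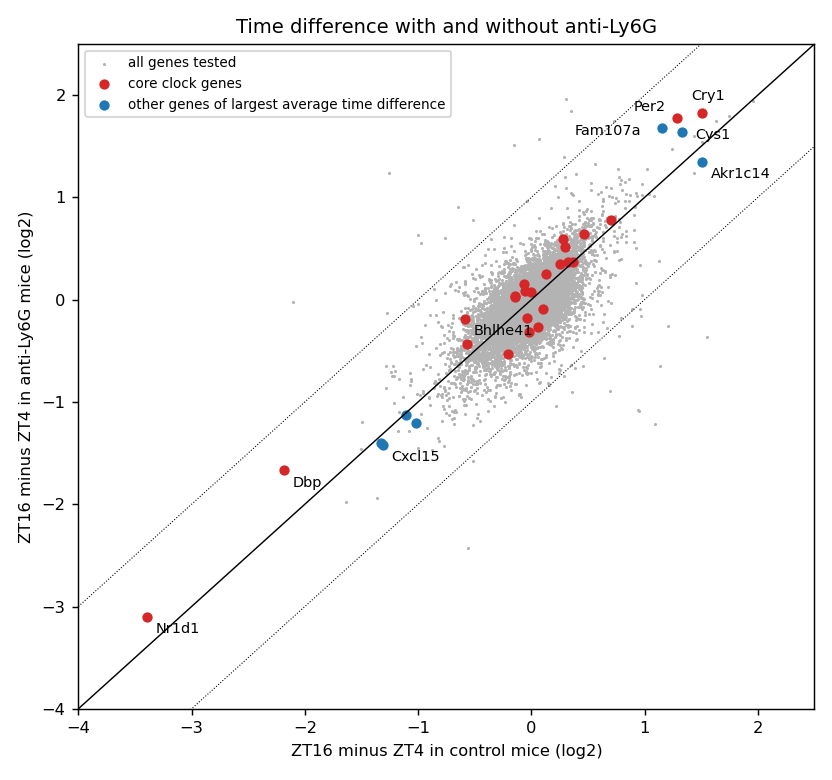
Log2 difference between ZT16 and ZT4 in anti-Ly6G mice (vertical axis) and in control mice (horizontal axis), 1 point per gene tested. The solid line marks equal differences and dotted lines a 2-fold interaction; the named clock genes with large time differences, such as Nr1d1 and Cry1, lie between the dotted lines.

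Averaged over both treatments, 4780 genes (28.6%) were called between ZT16 and ZT4. These genes were chosen by the average, which is computed independently of the interaction in groups of equal size, so both treatments can be set side by side in them. Taken in the direction of each gene's average, the median time difference was 0.27 (log2) in anti-Ly6G mice and 0.21 in control mice. The median interaction in that direction was 0.06, and 70.9% of the 4780 genes had the larger difference in anti-Ly6G mice, beside 0.03 and 60.0% for all genes tested. Genes higher at ZT16 had a median of 0.07 and genes lower at ZT16 of 0.05. In the 323 genes with an average difference between 1.5-fold and 2-fold, the median time difference was 0.79 in anti-Ly6G mice and 0.63 in control mice. In the 42 genes over 2-fold it was 1.42 in anti-Ly6G mice and 1.16 in control mice.

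The same lean was present when genes were chosen in 1 batch and measured in the other. The 1807 genes called in July had in September a median time difference of 0.30 in anti-Ly6G mice and 0.20 in control mice, with a median directed interaction of 0.10 and 72.3% of genes larger in anti-Ly6G mice. The 3137 genes called in September had in July a median of 0.22 in anti-Ly6G mice and 0.17 in control mice, with a directed interaction of 0.05 and 62.4% larger. Leaving out single mice gave directed medians between 0.05 and 0.08. Genes of a library are not independent of each other and these medians carry no test, so they describe these mice only.

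Clock genes changed strongly with time in both treatments. Of 25 core clock genes tested, 13 were called between ZT16 and ZT4 in anti-Ly6G mice, beside 19.9% of all genes tested, and 11 in control mice, beside 8.36%, with 9 of them in both. None had a called interaction, and the 1 gene at an unadjusted p under 0.05 was Cry1. Their median interaction was 0.14, beside -0.003 for all genes. A positive interaction is a larger rise at ZT16 or a smaller fall. The median thus mixes larger rises in anti-Ly6G mice (Cry1, Per2) with smaller falls (Nr1d1, Dbp). This median was 0.17 in July and 0.06 in September, and 0.08 without ZT4 anti-Ly6G mouse September 1 and 0.09 without ZT16 control mouse July 1. Mice are numbered here within group and batch by table order, which pairs nothing. For 20 of the 25 genes an interaction over 2-fold was rejected, a smaller share than the 96.7% of all genes. The exceptions were Per2, Nr1d1, Dbp, Arntl and Npas2.

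Among the repressors of the clock, Cry1 encodes a cryptochrome. Its values (lowest, median and highest of 7) were 39.4, 48.3 and 51.3 in anti-Ly6G mice at ZT16 and 11.2, 12.6 and 15.0 in anti-Ly6G mice at ZT4. In control mice they were 37.5, 44.6 and 50.5 at ZT16 and 12.0, 15.9 and 18.1 at ZT4. The groups of both times did not overlap in either treatment, whereas the treatments overlapped at each time. The time difference of Cry1 was 1.83 in anti-Ly6G mice and 1.51 in control mice, and the interaction was 0.32 ± 0.12 (log2 ± SE), with an interval from 0.07 to 0.57, an unadjusted p of 0.0137 and a limma adjusted p of 0.875. It was 0.53 in July and 0.16 in September.

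Cry1 lies on chromosome 10 of the GRCm38 build, from 85131700 to 85185064 on the minus strand. Its RefSeq promoter window is chr10:85185005-85185304 on the minus strand of GRCm38.p6. Windows were taken for Cry1, Nr1d1 and Dbp, clock genes among the largest average time differences. That of Cry1, also the clock gene of smallest interaction p, was picked for display after the motif search. It alone of these held a match to CACGTG, the E-box motif that CLOCK and BMAL1 bind. The match is in capitals, at 60 bases before the start of transcription.
Cry1 promoter: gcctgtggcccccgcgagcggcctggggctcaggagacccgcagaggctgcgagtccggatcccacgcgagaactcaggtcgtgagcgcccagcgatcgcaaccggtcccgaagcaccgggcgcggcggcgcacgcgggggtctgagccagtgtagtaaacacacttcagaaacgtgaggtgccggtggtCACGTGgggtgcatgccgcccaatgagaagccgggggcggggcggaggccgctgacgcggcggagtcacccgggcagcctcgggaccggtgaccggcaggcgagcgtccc
The windows of Nr1d1 and Dbp held no CACGTG. A match is only a match of letters, and no match says nothing about binding elsewhere.

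Per2, a period gene of the same repressor arm, had values of 129, 159 and 188 in anti-Ly6G mice at ZT16 and 25.1, 52.1 and 77.7 in anti-Ly6G mice at ZT4. Control mice had 124, 163 and 269 at ZT16 and 46.7, 63.7 and 107 at ZT4. Times did not overlap in either treatment, and 1 control mouse at ZT16 stood above the rest. The time difference was 1.77 in anti-Ly6G mice and 1.29 in control mice, and the interaction of 0.49 had an interval from -0.13 to 1.11 (adjusted p = 0.879). Per3 and Cry2 had called time differences in both treatments and interactions of 0.17 and 0.04. Per1 had neither a called time difference nor a called interaction (0.09, interval from -0.66 to 0.84, and -0.21 without ZT4 anti-Ly6G mouse September 1).

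In the receptor arm, Nr1d1 encodes the repressor REV-ERBα. It had values of 13.4, 25.9 and 59.0 in anti-Ly6G mice at ZT16 and 137, 303 and 369 in anti-Ly6G mice at ZT4. Control mice had 14.8, 25.2 and 57.2 at ZT16 and 188, 278 and 454 at ZT4. The times were far apart and the treatments overlapped at each time. The time difference was -3.10 in anti-Ly6G mice and -3.40 in control mice, and the interaction was 0.30 with an interval from -0.59 to 1.19 (adjusted p = 0.93), 0.92 in July and -0.17 in September. Rora, which encodes a ROR receptor that acts on the same DNA element, had a time difference of 0.37 in anti-Ly6G mice and 0.37 in control mice and an interaction of -0.001, for which a change over 1.5-fold was rejected (adjusted p = 7.43e-05). Nr1d1 shares 263 exonic bases with Thra, and Dbp 539 with Sphk2, in the annotation of that build, and the sources used here do not say whether reads were assigned by strand.

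No output or activator gene had a called interaction. Dbp, a transcription factor driven by the clock, had a time difference of -1.67 in anti-Ly6G mice and -2.19 in control mice, with an interaction of 0.52 and an interval from -0.51 to 1.55, which was 0.26 without ZT4 anti-Ly6G mouse September 2. Its relatives Tef and Hlf had called time differences in anti-Ly6G mice (0.52 and 0.59) and not in control mice (0.30 and 0.28), but the interactions, 0.22 and 0.32, were not called. Arntl, which encodes BMAL1, had an interaction of -0.32 with an interval from -1.14 to 0.49. Clock had -0.20, from -0.44 to 0.05, and its paralog Npas2 -0.29, from -1.21 to 0.62. Bhlhe41, another repressor, had an interaction of 0.40, from -0.06 to 0.86, which was 0.83 in July and 0.08 in September. The interval plot shows all of these together with other genes of large time difference.

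**Figure D2:**
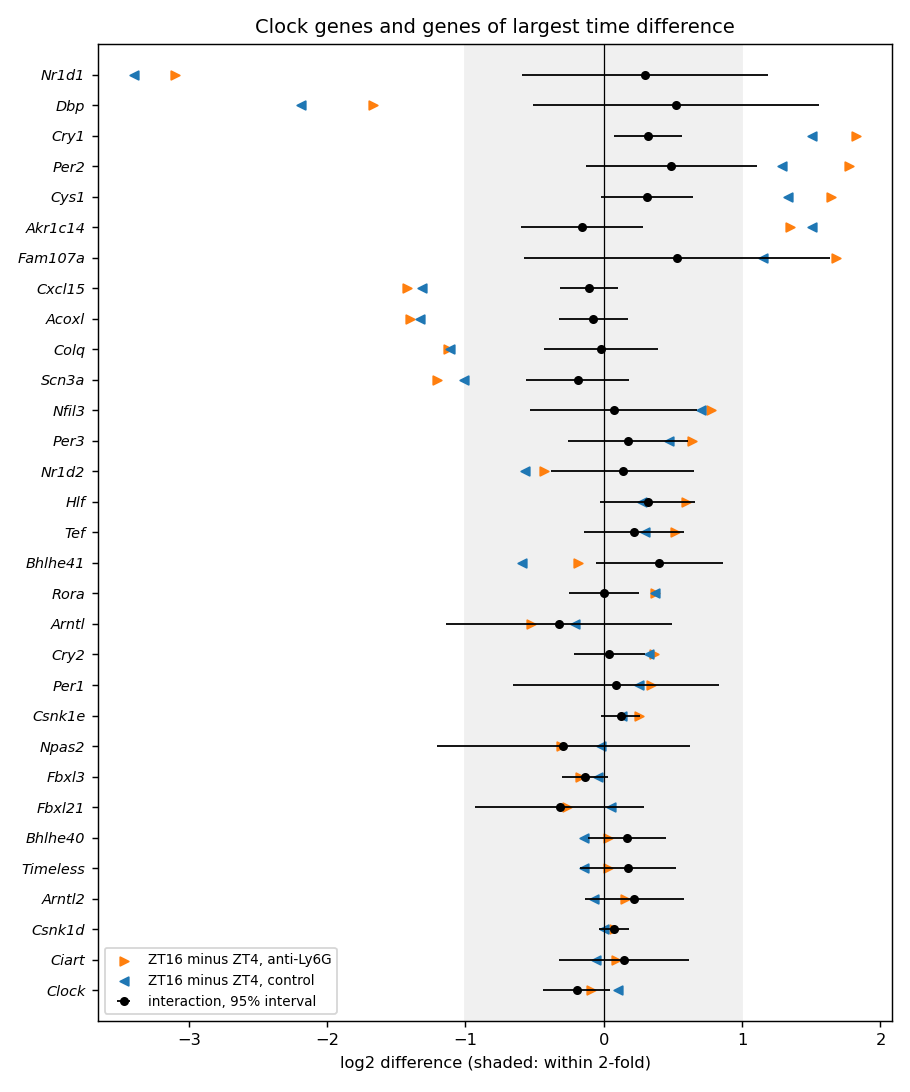
Interaction with its 95% interval (black) for core clock genes and other genes with the largest average time difference, with the time difference in anti-Ly6G mice (orange) and in control mice (blue), all in log2. Every interval but that of Cry1 spans 0, and the shaded band marks a 2-fold interaction.

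The 12 genes of largest average time difference were 6 up and 6 down among well-expressed genes, with Cry1, Per2, Nr1d1 and Dbp among them. An interaction over 2-fold was rejected for 8 of the 12 and one over 1.5-fold for 7. The shares of all genes were 96.7% and 78.2%. Cxcl15 encodes lungkine, a chemokine of the airway and alveolar epithelium. Its values were 401, 490.4 and 536 in anti-Ly6G mice at ZT16 and 1104, 1261 and 1432 in anti-Ly6G mice at ZT4. Control mice had 447, 533 and 585 at ZT16 and 1169, 1284 and 1491 at ZT4. Times stood apart in both treatments, and the interaction was -0.11 with an interval from -0.32 to 0.10. Acoxl, an acyl-CoA oxidase-like gene, had a time difference of -1.40 in anti-Ly6G mice and -1.33 in control mice and an interaction of -0.08, from -0.32 to 0.17. Colq, the collagen tail of acetylcholinesterase, had -1.13 in anti-Ly6G mice and -1.11 in control mice and an interaction of -0.02. Scn3a, a sodium channel subunit, had -1.20 in anti-Ly6G mice and -1.01 in control mice and an interaction of -0.19. Akr1c14, a hydroxysteroid dehydrogenase, had 1.35 in anti-Ly6G mice and 1.5 in control mice and an interaction of -0.16, which was 0.03 without ZT16 anti-Ly6G mouse July 2 and -0.25 without July mouse 3 of that group. Cys1, a cilium protein gene, had 1.64 in anti-Ly6G mice and 1.33 in control mice and an interaction of 0.31. Fam107a, a stress-responsive gene, had the widest interval of the 12, from -0.58 to 1.63.

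The genes with the largest interactions that had the same sign in both batches, an unadjusted p under 0.01 and at least the median level were chosen for those values, which are given as a description. There were 75 such genes, 36 positive and 39 negative, and the 6 largest of each sign are given. All 12 had a limma adjusted p of 0.875. An interaction over 2-fold was rejected for 11 of the 12, the exception being Pkhd1l1. One over 1.5-fold was rejected for 0 of the 12.

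Hspb7, a small heat shock protein of heart and muscle (chromosome 4, 141420779 to 141425311), had values of 28.2, 29.0 and 40.4 in anti-Ly6G mice at ZT16 and 17.2, 25.3 and 31.4 in anti-Ly6G mice at ZT4. Control mice had 23.3, 29.2 and 32.6 at ZT16 and 28.4, 31.1 and 34.3 at ZT4. Groups overlapped in both treatments, with the lowest mouse in the anti-Ly6G group at ZT4. The interaction was 0.49, with an interval from 0.20 to 0.79, and was 0.64 in July and 0.39 in September. Fibin, a secreted protein first described in fish fin formation (chromosome 2, 110360917 to 110363183), had 108, 121 and 131 in anti-Ly6G mice at ZT16 and 59.7, 62.6 and 84.1 in anti-Ly6G mice at ZT4. Control mice had 93.4, 107 and 115 at ZT16 and 60.0, 71.7 and 90.3 at ZT4. Times stood apart in both treatments, and the interaction was 0.38, from 0.15 to 0.61, at 0.39 in July and 0.38 in September.

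The other positive genes were Fam13a, a gene linked to chronic lung disease in human studies, with an interaction of 0.48, the orphan receptor gene Gpr153 with 0.46, the secreted-protein gene Crispld2 with 0.41 and Peli2, a ubiquitin ligase gene of Toll-like receptor signalling, with 0.41. Crispld2 had a median of 213 in anti-Ly6G mice at ZT16 and 139 in anti-Ly6G mice at ZT4, against 187 in control mice at ZT16 and 168 in control mice at ZT4. Its values at ZT16 and ZT4 overlapped in control mice and stood apart in anti-Ly6G mice.

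Pkhd1l1, a large membrane protein related to fibrocystin (chromosome 15, 44457494 to 44601369), had the most negative interaction of these genes. Its values were 14.5, 22.1 and 28.1 in anti-Ly6G mice at ZT16 and 25.4, 41.0 and 74.4 in anti-Ly6G mice at ZT4. Control mice had 15.0, 28.9 and 34.6 at ZT16 and 20.2, 26.4 and 48.4 at ZT4. Groups overlapped in both treatments, with the highest mouse in the anti-Ly6G group at ZT4. The interaction was -0.86, with an interval from -1.41 to -0.31, at -0.78 in July and -0.92 in September.

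Itgb6, the integrin subunit with which lung epithelium activates TGF-β (chromosome 2, 60598292 to 60722643), had 17.2, 27.97 and 38.1 in anti-Ly6G mice at ZT16 and 55.8, 61.6 and 64.5 in anti-Ly6G mice at ZT4. Control mice had 27.7, 33.1 and 40.4 at ZT16 and 46.7, 53.6 and 63.2 at ZT4. Itgb6 fell with time in both treatments, by 1.15 in anti-Ly6G mice and 0.68 in control mice on the log2 scale. Its interaction of -0.47 was -0.81 in July and -0.22 in September. The other negative genes were Cep70, a centrosome gene, with -0.48, Cmah, which converts a sialic acid, with -0.44, Radil, an effector of the GTPase Rap, with -0.43 and Nbeal1, a BEACH-domain gene, with -0.43. In the annotation, exons of Peli2, Fam13a, Cep70 and Nbeal1 overlap those of predicted gene models.

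The interaction of single genes repeated weakly between batches. July and September share no mouse, and across the 16707 genes Pearson's r between their interactions was 0.06 and Spearman's rho 0.12, as a description over genes that share libraries. The sign was the same for 55.1% of genes. For comparison, r between batches was 0.52 for the time difference in anti-Ly6G mice, 0.34 for that in control mice and 0.55 for their average. Among genes at or above the median level r of the interaction was 0.21, against 0.03 below it. Tested alone, July called 0 genes (652 at an unadjusted p under 0.05, lowest adjusted p 0.992) and September 0 (718, and 0.99). Of the 652 July genes, 405 (62.1%) had the same sign in September, and of the 718 September genes, 434 (60.4%) had the same sign in July. A limma test of the September minus July interaction, added after the data had been seen, called 0 genes as well, where 570 had an unadjusted p under 0.05 and the lowest adjusted p was 0.998.

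**Figure D3:**
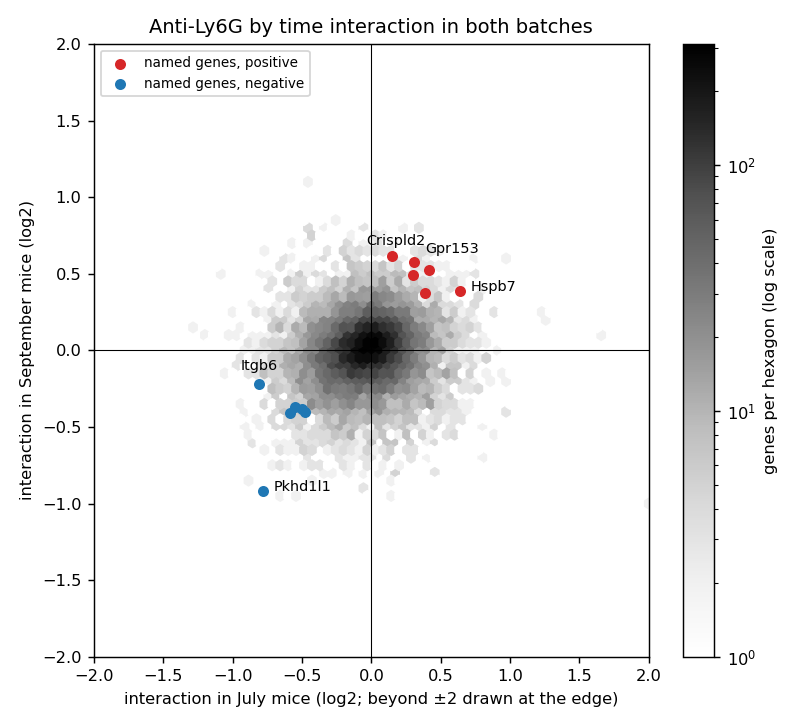
Interaction in September mice (vertical axis) against interaction in July mice (horizontal axis), in log2, with genes counted per hexagon and the 12 genes named for their interaction drawn as points, chosen for the same sign in both batches. The cloud of all genes is close to round, with r = 0.06.

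At an unadjusted p under 0.05 in both batches, 26 genes had the same sign, 7 positive and 19 negative, and 8 had opposite signs. The 26 were 3.99% of the 652 July genes. Of all genes tested, 434 (2.60%) had such a p in September with the sign of July, and 284 with the opposite sign. The highest-expressed of the 26, named after their values were seen, were Lyve1 and Slc39a8. Lyve1, a hyaluronan receptor of lymphatic vessels and of some tissue macrophages, had an interaction of 0.40 in July and 0.64 in September. The list of 8 lymphatic genes that holds Lyve1 had a median interaction of -0.02, with 3 positive and 5 negative. Slc39a8, a metal transporter gene, had -0.43 in July and -0.29 in September. Other members with a usual symbol included Entpd1, which breaks down extracellular ATP, at 0.30 in July and 0.39 in September. Cd2ap, a scaffold protein gene, had -0.40 in July and -0.36 in September. Fibin, Hspb7, Cmah and Radil, described above, were among the 26.

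Neutrophil transcripts were examined as the target of the antibody. In anti-Ly6G mice none of Csf3r, S100a8, S100a9, Retnlg, Cxcr2 and Mmp9 had a called time difference. In control mice Mmp9, a neutrophil gelatinase, fell by 1.24 on the log2 scale (limma adjusted p = 0.00988), and by 0.89 (adjusted p = 0.0124) without September mouse 2 of the control group at ZT4. In anti-Ly6G mice Mmp9 fell by 0.70 (limma adjusted p = 0.106). Its interaction was 0.54, with an interval from -0.35 to 1.43. All 6 interactions were positive, between 0.04 (S100a8, whose sign turned with library weights or batch-wise means) and 0.61 (Csf3r), 0 were called, and an interaction over 2-fold could be rejected for 0 of them. Csf3r, the receptor for granulocyte colony-stimulating factor, had values of 4.03, 5.13 and 8.64 in anti-Ly6G mice at ZT16 and 4.96, 7.96 and 9.36 in anti-Ly6G mice at ZT4. Control mice had 5.68, 9.03 and 17.9 at ZT16 and 11.1, 13.8 and 92.4 at ZT4. All control mice at ZT4 stood above all anti-Ly6G mice, and 1 control mouse at ZT4 stood far above the others. S100a9, which forms calprotectin with S100a8, reached 279 in control mice at ZT4, where the median was 15.8. Without that September mouse 2 the interactions were 0.24 for Csf3r, 0.20 for Cxcr2, 0.19 for Mmp9, -0.049 for S100a9, -0.11 for Retnlg and -0.54 for S100a8. Ly6g itself reached a value of 1 in 1 library only and was not tested.

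Over the list of 21 mature neutrophil genes tested, the median interaction was 0.46, with 0 called and 0 at an unadjusted p under 0.05. Of the 21, 20 were positive, beside 49.2% of all genes. Without September mouse 2 of the control group at ZT4 the median was 0.11. It was -0.04 in July and 0.67 in September. The mean log2 level of the list was 1.41, 1.61 and 1.79 (lowest, median and highest) in anti-Ly6G mice at ZT16 and 1.52, 1.95 and 2.34 in anti-Ly6G mice at ZT4. It was 1.54, 2.10 and 2.32 in control mice at ZT16 and 2.08, 2.26 and 4.90 in control mice at ZT4. The highest value belonged to that same mouse. Anti-Ly6G mice at ZT16 all lay below control mice at ZT4, and the other pairs of groups overlapped. The list's bounds were wide: an interaction over 2-fold was rejected for 5 of the 21 genes, against 96.7% of all genes. A separate list of 6 neutrophil granule genes had a median interaction of 0.06, with 3 positive and 3 negative.

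Of the 44 lists of pathways and cell types, 23 had the same sign of the median interaction in July and September and 21 had opposite signs. No gene of any list was called. Over all genes tested, 49.2% had a positive interaction. At an unadjusted p under 0.05, 2.28% were positive and 3.3% negative. The counts per list below are to be read beside these shares, and the genes of a list are not independent of each other. The list of 20 heart muscle genes, which marks tissue that can come along with lung veins or heart, had a median of 0.30, with 20 of 20 positive and 3 at an unadjusted p under 0.05 (Tnnc1, Hrc and Actn2). It was 0.30 in July and 0.15 in September, and between 0.20 and 0.36 when single mice were left out. Tnnc1, a troponin of slow and cardiac muscle, had a median of 21.2 in anti-Ly6G mice at ZT16 and 15.4 in anti-Ly6G mice at ZT4, against 17.6 in control mice at ZT16 and 23.4 in control mice at ZT4. Its interaction was 0.53, from 0.06 to 1.00. Hrc, a calcium-binding protein of the sarcoplasmic reticulum, had 0.43 and Actn2, a sarcomere actinin, 0.40. The list's mean log2 level was 4.86, 5.02 and 5.53 in anti-Ly6G mice at ZT16, 4.58, 4.98 and 5.37 in anti-Ly6G mice at ZT4, 4.92, 4.99 and 5.54 in control mice at ZT16 and 4.94, 5.41 and 5.72 in control mice at ZT4, so all groups overlapped.

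**Figure D4:**
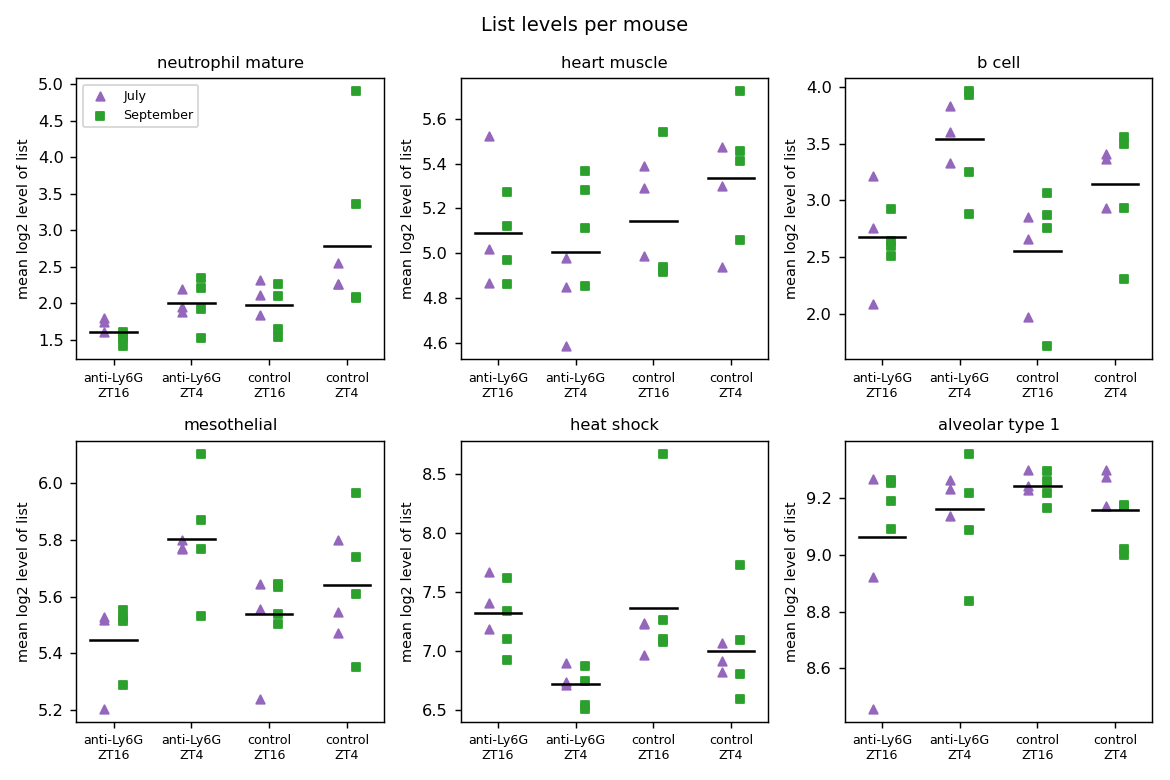
Mean log2 level of 6 gene lists per mouse in the 4 groups, July mice as triangles and September mice as squares, with the group mean as a bar. In the mature neutrophil list 1 control mouse at ZT4 lies at 4.90, above all others; in the heat shock list 1 control mouse at ZT16 lies at 8.67.

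Smooth muscle genes had a median interaction of 0.18, with 16 of 16 positive and 2 at an unadjusted p under 0.05. These were Des, which encodes desmin, at 0.32 and Smtn, which encodes smoothelin, at 0.18. The list was at 0.19 in July and 0.17 in September. Pericyte and fibroblast genes had a median of 0.12, with 16 of 19 positive.

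Mesothelial genes, which mark the cells that line the lung surface, had a median of -0.28, with 15 of 16 negative and 3 at an unadjusted p under 0.05. It was -0.21 in July and -0.29 in September, and between -0.32 and -0.22 when single mice were left out. Of these 16 genes, 10 were lower at ZT16 in anti-Ly6G mice, where 9.71% of all genes were, and 1 in control mice, where 4.04% of all genes were and 1 of the 16 was higher. Gpm6a, a membrane glycoprotein gene, had a median of 66.6 in anti-Ly6G mice at ZT16 and 101 in anti-Ly6G mice at ZT4, against 76.3 in control mice at ZT16 and 91.6 in control mice at ZT4. Its interaction was -0.38, from -0.69 to -0.06. Wt1, the transcription factor that marks mesothelium, had -0.70, and Rspo1, a secreted enhancer of Wnt signalling, -0.31. The list's mean log2 level stood between 5.20 and 5.55 in anti-Ly6G mice at ZT16 and between 5.53 and 6.10 in anti-Ly6G mice at ZT4, against 5.24 to 5.65 in control mice at ZT16 and 5.35 to 5.96 in control mice at ZT4.

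Alveolar type 1 genes, of the thin cells of gas exchange, had a median of -0.16, with 19 of 19 negative. It was -0.31 in July and -0.05 in September, and -0.08 without July mouse 2 of the anti-Ly6G group at ZT16, whose list level of 8.46 was the lowest of all 28 mice. At an unadjusted p under 0.05 were Akap5 at -0.47 and Pdpn, which encodes podoplanin, at -0.34. An interaction over 1.5-fold was rejected for 15 of the 19 genes, close to the 78.2% of all genes.

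Like the mature neutrophil list, the B cell, plasma cell and alveolar macrophage lists moved with single mice. B cell genes had a median of -0.30, with 18 of 21 negative. It was -0.13 in July and -0.43 in September, -0.12 without control mouse September 2 at ZT4, -0.45 without control mouse September 3 at ZT16, -0.19 without ZT4 anti-Ly6G mouse September 2 and -0.20 without ZT16 anti-Ly6G mouse July 3. Of the 21, 17 were lower at ZT16 in anti-Ly6G mice, beside 9.71% of all genes, and 5 in control mice, beside 4.04%. Vpreb3, a protein of B cell precursors, rose with time, by 1.00 in anti-Ly6G mice and 0.71 in control mice, with an interaction of 0.29. The 7 plasma cell genes had a median of -0.32, at 0.02 in July and -0.59 in September, and between -0.49 (without ZT16 control mouse September 1) and -0.09 (without ZT4 anti-Ly6G mouse September 3). Leaving out ZT4 anti-Ly6G mouse September 2 gave -0.11, and leaving out ZT16 control mice September 2, September 3 or July 3 gave -0.18, -0.19 or -0.15. Mzb1, a secretory chaperone, had -0.44, and -0.27 without ZT4 anti-Ly6G mouse September 2. Igkc, the kappa constant region, had -0.45, and -0.26 without ZT16 control mouse July 3 or -0.29 without ZT16 control mouse September 2. Of the 7 plasma cell genes, 6 were negative and 1, Prdm1, was positive, at 0.16 (0.54 in July and -0.13 in September). Alveolar macrophage genes had 0.20, at -0.10 in July and 0.31 in September, and 0.13 without ZT4 anti-Ly6G mouse September 4. Of these, 6 of 18 were higher at ZT16 in anti-Ly6G mice, beside 10.2% of all genes, and 0 in control mice, beside 4.32%. Only 3 eosinophil genes could be tested. T cell genes had a median of 0.05, with 15 of 24 positive, and natural killer cell genes -0.09. Dendritic cell genes had -0.07 and monocyte and interstitial macrophage genes -0.06.

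Heat shock genes, which encode chaperones and their partners, had a median interaction of 0.22, with 17 of 20 positive. It was 0.30 in July and 0.11 in September, 0.36 without control mouse September 3 at ZT16 and 0.11 without control mouse September 2 at ZT4. Of the 20, 11 were higher at ZT16 in anti-Ly6G mice, beside 10.2% of all genes, and 3 in control mice, beside 4.32%. Hspa8, the constitutive HSC70 chaperone, had 1557, 2162 and 2885 in anti-Ly6G mice at ZT16 and 734, 972 and 1231 in anti-Ly6G mice at ZT4. Control mice had 1694, 1945 and 4549.7 at ZT16 and 1016, 1273 and 2135 at ZT4. Hspa8 rose in both treatments, by 1.10 in anti-Ly6G mice and 0.66 in control mice, with an interaction of 0.44, from -0.08 to 0.96. The co-chaperone genes Stip1 and Fkbp4 had 0.36 and 0.24, and 0.57 and 0.37 without ZT16 control mouse September 3. Fkbp4 had 0.15 without ZT4 control mouse September 2.

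Metabolic and housekeeping lists had narrow bounds. Xenobiotic genes, which detoxify foreign and oxidised compounds, had a median of 0.12, at 0.16 in July and 0.14 in September, with 27 of 33 positive. In time, 18 of the 33 were higher at ZT16 in anti-Ly6G mice, beside 10.2% of all genes, and 13 in control mice, beside 4.32%. Those at an unadjusted p under 0.05 were Aldh1a1 at 0.28, Fmo2 at 0.25, Aldh1a7 at 0.21, Por at 0.19 and Gstm1 at 0.18. An interaction over 1.5-fold was rejected for 30 of the 33 genes, beside 78.2% of all genes. For the 26 ribosomal protein genes, the 24 of oxidative phosphorylation, the 23 of sterol and lipid synthesis, the 20 of alveolar type 2 cells and the 20 of cilia it was rejected for every gene, and their medians lay between -0.02 and 0.10. Cell cycle genes had a median of -0.15, at 0.04 in July and -0.25 in September, -0.03 without ZT4 anti-Ly6G mouse September 2 and -0.10 without ZT4 control mouse September 2, with Kif4, Mki67, Bub1 and Cenpf at an unadjusted p under 0.05. Interferon-stimulated genes had -0.16, at -0.29 in July and -0.02 in September, 0.09 without ZT4 anti-Ly6G mouse July 3, and -0.10 without either of ZT4 control mice September 2 and July 2. The 8 haemoglobin and other erythroid genes were at 1.08 in July and -0.93 in September. Bounds were wider here: an interaction over 1.5-fold was rejected for 12 of 26 cell cycle, 14 of 30 interferon-stimulated and 2 of 8 erythroid genes. The plot of list medians shows all 44 lists in both batches.

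**Figure D5:**
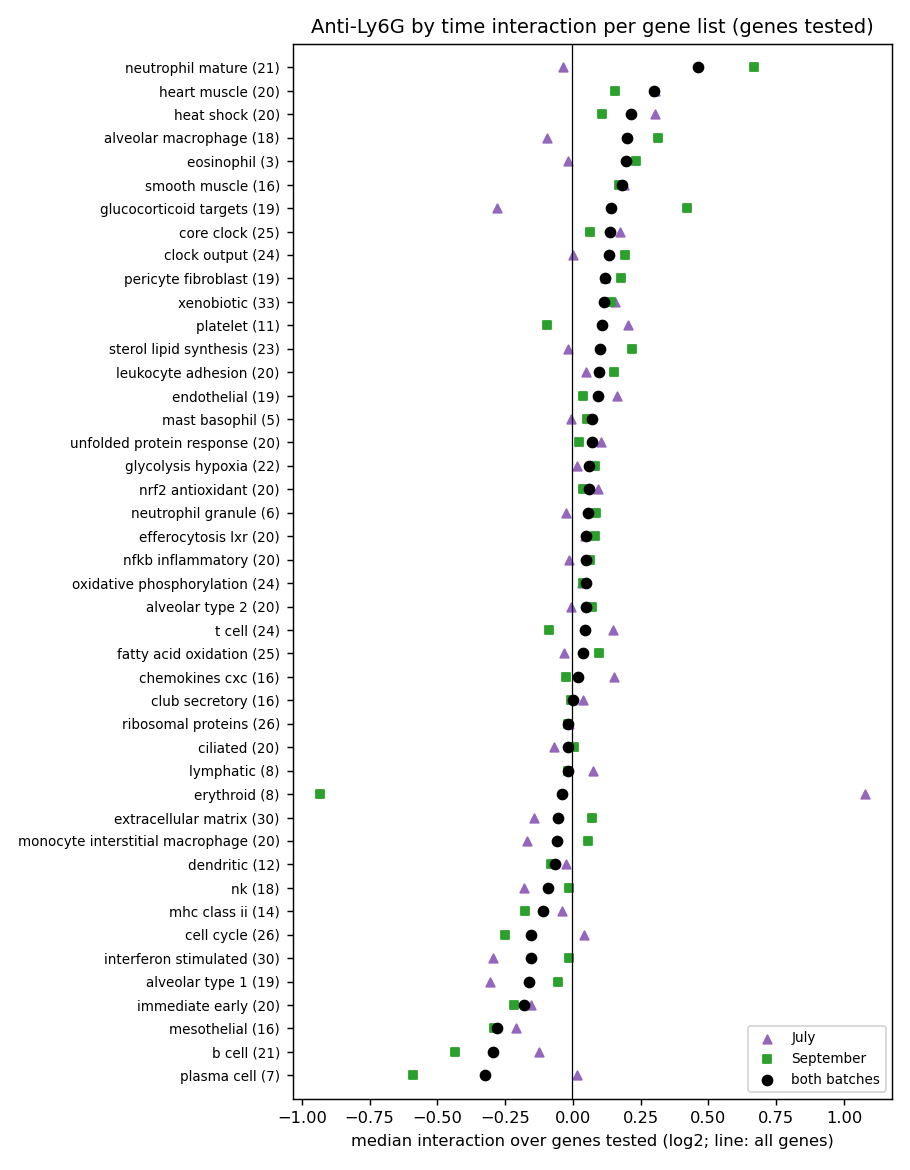
Median interaction (log2) over the tested genes of each of 44 lists, in both batches together (black), July (triangles) and September (squares), with the number of genes in brackets and a line at the median of all genes. Mature neutrophil genes are highest and plasma cell genes lowest, at 0.46 and -0.32, and both lie near 0 in July. The separate list of 6 neutrophil granule genes lies at 0.06.

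Clock motifs were searched in the promoters of the tested genes, and no gene with one had a called interaction. RefSeq windows of GRCm38.p6, each 300 bases around the start of transcription, matched 11773 tested genes by symbol. CACGTG, the E-box shown for Cry1, was searched on both strands, like the 2 motifs below, none of which contains another, and found in 7.15% of all 32851 windows. The 1292 tested genes with it had a median interaction of 0.002, with 27 positive and 42 negative at an unadjusted p under 0.05. In those called over time the directed interaction had a median of 0.05, beside 0.06 for all matched genes. The D-box TTATGTAA, bound by DBP, TEF and HLF, was in 0.938% of windows and 93 genes, with a median of -0.004 and a directed median of 0.02 in the 39 called over time. The element TAGGTCA, bound by ROR and REV-ERB, was in 2.61% of windows and 276 genes, with a median of -0.006 and a directed median of 0.05 in the 90 called over time.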

How the data were processed

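Lung polyA RNA went through a single-cell amplification kit before sequencing, per the labels' protocols. The submitters' processing notes name kallisto 0.43.1, RSEM 1.2.20, cutadapt, CASAVA 1.8.2 and GRCm38, without saying what each did. The values the authors deposited are a signal that is never negative, normalised per gene in a way not given in the sources used here. They are not whole numbers, their unit is not stated in those sources, and read depth is unknown. Divided by its standard error, the September minus July term had an SD of 0.512 over genes. Batches left unadjusted give about 1 or more, so values may have been aligned between batches before deposit and standard errors may be somewhat too small.

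Columns were mapped to group and batch by name, and 0 columns of per-sample values were left unused. Genes with a value of at least 1 in at least 3 of the 28 libraries were kept, and 5504 were removed. limma 3.58.1 in R 4.3.3 (trend option) was fitted to log2(value + 0.5) with a mean per group and a batch term (23 residual degrees of freedom). This scale understates changes of low genes. Tests were two-sided, with Benjamini-Hochberg adjustment over all genes kept, at 0.05. Bounds came from 95% intervals and from one-sided moderated tests against 2-fold and 1.5-fold interactions. The fit was tested on simulated data. P-values measure spread between mice.

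Named genes were the 6 largest interactions of each sign at an unadjusted p under 0.01 with the same sign in both batches, the 6 largest average time differences of each sign (both at or above the median level, with a usual symbol), every core clock gene, Ly6g and 6 further genes of neutrophils, and, in the 8 lists farthest from all genes, at most 3 each by smallest p. Other genes named were chosen after their values were seen. Of 820 list symbols, 782 were tested. Genes, lists and tests were chosen with earlier results of these data known. Alternatives were other pseudocounts, filters, quantile normalisation, library weights, robust spread, a mean per group and batch, all 35 libraries, single batches and leaving out each library. Of the genes this rule names, 2 are not reported here.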

Additional observations from a re-analysis of the deposited data

Results flagged for a closer look

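In 156 groups of 7 mice examined (genes named for their interaction, their time difference or neutrophils, and the 8 leading lists), 10 held a mouse that stood apart from the other 6, where chance gives about 1 in 20 groups. In anti-Ly6G mice, Fibin was 84.1 in September mouse 4 at ZT4, above the others, Pkhd1l1 was 14.5 in July mouse 1 at ZT16, below them, and Dbp was 19.5 in September mouse 2 at ZT4, below them. In control mice at ZT16, July mouse 1 was low in Pkhd1l1 (15.0), in Cmah (39.0) and in the mesothelial list (a mean log2 level of 5.24). In the same group, September mouse 3 was high in Per2 (269) and in the heat shock list (a mean log2 level of 8.67). Among control mice at ZT4, September mouse 2 was high in the neutrophil genes Retnlg (58.2) and Ly6g (6.04). No mouse was removed for this.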

How the results depend on the processing

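The interaction had 0 called genes under every alternative run. Time calls moved by more than 1.5 times within single batches, which hold fewer mice: July alone gave 797 genes in anti-Ly6G mice, 312 in control mice and 1807 on average, and September alone 1476, 484 and 3137. Leaving out 1 library gave 747 to 1212 genes at an unadjusted p under 0.05 for the interaction, 2707 to 3466 time calls in anti-Ly6G mice, 1036 to 1487 in control mice and 4359 to 4789 on average. It also gave 16079 to 16146 genes within 2-fold and an r between batches of 0.025 to 0.087. The sign of S100a8 turned to -0.066 with a mean per group and batch and to -0.15 with library weights, and that of Rora to 0.024 with library weights, and the cause was not tested. For 72 named genes, leaving out 1 library turned the sign of 9, moved 37 (these 9 among them) by more than 1.5 times, and called 0 (lowest adjusted p 0.54). It gave -0.25 to 0.035 for Akr1c14, -0.091 to 0.098 for Colq, -0.011 to 0.097 for Cry2, -0.066 to 0.19 for Nfil3, -0.21 to 0.33 for Per1 and -0.051 to 0.065 for Rora. It gave -0.54 to 0.29 for S100a8, -0.049 to 0.79 for S100a9 and -0.11 to 0.68 for Retnlg, lowest each time without control mouse September 2 at ZT4. No paired analysis was possible because the table's column numbers match the labels' replicate numbers in full only in the ZT16 groups of September, so numbers could not be tied across the 4 groups. Read depth is unknown, and intervals of low genes are wide.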
